A study of Mus musculus with 4 samples.

Results

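In NOD embryonic stem (ES) cells, 668 of 11830 regions enriched for trimethylated lysine 4 of histone H3 (H3K4me3) over B6 ES cells also carried acetylated lysine 27 of the same histone (H3K27ac) enriched over B6. This was 5.65% of the NOD H3K4me3 list (95% Wilson interval 5.24 to 6.08). In B6 ES cells, 270 of 7519 regions carried both marks, or 3.59% (3.19 to 4.04). A region was selected when it lay on chromosomes 1 to 19 and shared at least 1 bp with an H3K27ac region of the same strain. The 938 selected regions came from 19349 H3K4me3 regions on these chromosomes, and from 31315 regions of all kinds in the whole series. Because the overlap was the selection rule, it is a description and not a test.

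The cells were ES cells isolated from embryos of the autoimmune-prone, non-obese diabetic NOD strain and of the C57BL/6 (B6) strain, which served as the diabetes-resistant comparison. Both were grown in the presence of 2i, a pair of inhibitors of the kinases MEK and GSK3 that hold ES cells in a naive state, and the labels give no other treatment. Chromatin immunoprecipitation and sequencing (ChIP-Seq) of each strain and mark was represented by 1 library, so there were 4 libraries and no replicates, and nothing below carries a test. The labels do not say which ES cell line of a strain was used, and reads of both strains were placed on mm10, the reference genome of B6. The deposited lists hold strain differences alone, so a gene marked alike in both strains is not in them, and the labelled cell type could not be checked against its markers.

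The H3K4me3 headers gave 22750449 tags for NOD and 14791364 for B6, a ratio of 1.54. A tag is an aligned read, and H3K4me3 values are given as tags or as tags per 10000000 tags of the library, termed normalised tags. The H3K27ac lists gave a score, which is the own-strain signal after subtraction of the other strain and has no stated scale, and no depth. Ranks are by this score within the list of the strain. All intervals are 95% intervals and cover counting error only, and neighbouring regions are not independent.

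H3K4me3 is laid down by SET1 and MLL complexes, whose CXXC-domain subunits bind unmethylated CpG sites, and it marks active and poised promoters. H3K27ac is written by p300 and CBP and marks active promoters and enhancers. Where both marks meet, the place is usually an active promoter or a strong enhancer. In ES cells, many endogenous retroviral repeats are silenced by zinc finger proteins of the KRAB class and their partner KAP1.

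Regions with the best combined rank of both marks are shown by sequence. They need not lead by each mark alone. Among B6 regions with both marks, Mfap3 ranked 22 by tags and 2 by score, and Zc3h12a 16 and 34. For the 5 regions of each strain with the best sum of the ranks by normalised tags and by H3K27ac score, 240 bases of the shared stretch that avoid exons and repeats as far as possible were taken from the GRCm38.p6 (mm10) RefSeq genome, plus strand. No such stretch was found for the NOD region at Creg2. Capitals mark each CpG, and a name is the gene that the H3K27ac file assigns.
NOD Gm14296, chr2:177073298-177073537: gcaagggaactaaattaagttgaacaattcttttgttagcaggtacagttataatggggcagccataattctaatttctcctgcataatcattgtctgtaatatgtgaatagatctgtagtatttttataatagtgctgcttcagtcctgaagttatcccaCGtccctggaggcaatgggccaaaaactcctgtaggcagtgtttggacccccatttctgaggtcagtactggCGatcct
NOD Smarca5-ps, chr4:145432490-145432729: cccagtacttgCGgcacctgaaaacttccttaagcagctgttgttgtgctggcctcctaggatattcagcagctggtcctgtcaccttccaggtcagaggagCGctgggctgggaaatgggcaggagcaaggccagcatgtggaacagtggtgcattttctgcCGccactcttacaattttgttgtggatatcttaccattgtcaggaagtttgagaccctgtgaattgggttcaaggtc
NOD Gm14296, chr2:177079806-177080045: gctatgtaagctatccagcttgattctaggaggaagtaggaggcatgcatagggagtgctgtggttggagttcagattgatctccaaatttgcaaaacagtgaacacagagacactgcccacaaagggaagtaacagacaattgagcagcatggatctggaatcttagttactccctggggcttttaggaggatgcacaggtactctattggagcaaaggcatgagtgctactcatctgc
NOD Ppp1r26, chr2:28432709-28432948: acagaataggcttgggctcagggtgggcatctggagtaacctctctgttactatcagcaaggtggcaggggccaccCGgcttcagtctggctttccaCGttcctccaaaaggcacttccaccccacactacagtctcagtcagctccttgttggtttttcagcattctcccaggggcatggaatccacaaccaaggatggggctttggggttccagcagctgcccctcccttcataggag
B6 Gm15698, chr11:88968238-88968477: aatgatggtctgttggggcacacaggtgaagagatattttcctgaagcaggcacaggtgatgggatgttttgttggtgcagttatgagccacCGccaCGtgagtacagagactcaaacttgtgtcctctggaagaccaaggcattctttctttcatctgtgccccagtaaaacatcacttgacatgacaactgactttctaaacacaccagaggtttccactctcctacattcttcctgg
B6 Mfap3, chr11:57559250-57559489: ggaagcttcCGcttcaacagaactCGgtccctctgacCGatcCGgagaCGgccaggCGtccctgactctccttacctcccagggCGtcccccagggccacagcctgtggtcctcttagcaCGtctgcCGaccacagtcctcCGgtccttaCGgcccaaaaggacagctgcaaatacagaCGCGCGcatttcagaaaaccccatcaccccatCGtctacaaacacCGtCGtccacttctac
B6 Klhdc4, chr8:121841408-121841647: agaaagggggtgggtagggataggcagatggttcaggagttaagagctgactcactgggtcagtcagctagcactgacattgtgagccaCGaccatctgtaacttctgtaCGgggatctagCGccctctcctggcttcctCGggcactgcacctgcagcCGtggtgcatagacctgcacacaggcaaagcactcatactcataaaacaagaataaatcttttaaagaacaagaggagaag
B6 Frmd4b, chr6:97616165-97616404: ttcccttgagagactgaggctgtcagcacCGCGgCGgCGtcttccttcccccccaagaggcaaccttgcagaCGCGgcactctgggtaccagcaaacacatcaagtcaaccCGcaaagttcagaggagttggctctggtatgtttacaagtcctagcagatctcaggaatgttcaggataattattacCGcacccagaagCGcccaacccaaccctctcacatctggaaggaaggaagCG
B6 Zc3h12a, chr4:125127218-125127457: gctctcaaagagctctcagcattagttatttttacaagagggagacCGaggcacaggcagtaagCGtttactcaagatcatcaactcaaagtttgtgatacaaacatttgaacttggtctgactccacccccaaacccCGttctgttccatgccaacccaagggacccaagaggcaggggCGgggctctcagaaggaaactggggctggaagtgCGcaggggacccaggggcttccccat
The 4 NOD stretches held 0 to 3 CpG sites and the 5 B6 stretches held 2 to 17. The stretch at Mfap3, with 17, and that at Frmd4b, with 10, were the richest of those shown. A NOD stretch at Rims2, number 12 by combined rank and not shown, held 16. Its sequence was nearly the same as that at Mfap3, so it is not a separate example of a CpG-rich stretch. No strain difference in CpG sites is read from these few stretches.

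In NOD, the strongest H3K4me3 region was at Smarca5-ps, a pseudogene of the chromatin remodeller Smarca5. It ran from 145431999 to 145436543 on chromosome 4 and held 3116 NOD tags against 99 B6 tags. After scaling to library size this was 20.5-fold (exact binomial interval 16.8 to 25.3), and the H3K27ac region under it had a score of 1024.4 and rank 2 in NOD. A second region at Smarca5-ps, starting at 145408824, held 2018 NOD and 50 B6 tags, with an H3K27ac score of 525.6. The region of the highest H3K27ac score in NOD, 1045.4, was at Gm14296 on chromosome 2. Its strongest H3K4me3 region held 1561 NOD and 223 B6 tags, which was 4.55-fold (3.95 to 5.26), so that B6 carried a sizeable signal there as well. Both leading H3K27ac regions were intergenic, 24.8 kb and 141 kb from the start of the gene that names them.

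The other NOD regions among the 10 with the most tags held between 1068 and 1561 NOD tags. At Ipp, an actin-binding protein gene, there were 1450 NOD tags against 13 of B6, or 72.5-fold (42.3 to 137), and the H3K27ac score was 187.8. At Bcdin3d, an RNA methyltransferase gene, 1196 against 17 tags gave 45.7-fold (28.4 to 78.8), over an H3K27ac region of 362 bp that reached a score of 31.1. These regions had nearly no B6 signal, whereas Stac2 (1561 and 117 tags), Zfp970 (1335 and 133), Gm14403 (1321 and 132) and Creg2 (1068 and 126) kept over 100 B6 tags. At Ly6e, which encodes a GPI-anchored protein that restricts or aids viruses, 1351 NOD tags stood against 68 of B6 and the H3K27ac score was 336.4. The homeobox gene Crxos had the third-highest H3K27ac score of NOD, 986.0, and a region with 489 NOD and 11 B6 tags, 757 bp from its transcription start site (TSS). High scores were also found at Slc35g1 (869.9) and Ppp1r26 (616.1).

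In B6 the highest values were lower than in NOD, and the leading regions by tags and by score were different ones. The most tags lay at the promoter of Bzw1, with 503 B6 tags against 77 NOD tags (10-fold, 7.89 to 12.9) and an H3K27ac score of 39.0. The highest H3K27ac score, 658.6, was at Gm15698 on chromosome 11, in a region only 697 bp wide, and its H3K4me3 region held 351 B6 and 78 NOD tags. At Mfap3, a gene for a microfibril-associated glycoprotein, 173 B6 tags stood against 1 NOD tag, with an H3K27ac score of 431.9, and 4 of 5 stretches of this region occur more than once in the genome. Such repeats are counted for all regions further on. Xkr8, a phospholipid scramblase gene, had 423 and 59 tags, and E330020D12Rik had 352 and 41. The other B6 regions among the 10 with the most tags were at 1700018B08Rik (342 and 67), 5730507C01Rik (294 and 46), 1700030C10Rik (288 and 10), Gm8909, 3300002I08Rik (274 and 99) and Gm4425 (225 and 12). Those of 5730507C01Rik, 1700030C10Rik and 3300002I08Rik lay in repeated sequence. Scaf4, whose score of 431.4 was next to that of Mfap3, had 23 and 17 B6 tags in its regions, and Efcab12, with a score of 347.8, had 31. The H3K27ac region at Hes1, an effector of Notch signaling, had a score of 318.0, but its H3K4me3 regions held 24 and 14 B6 tags. At Olig1, a neural transcription factor gene, a score of 302.9 went with 19 B6 tags and 2 NOD tags, so that a high H3K27ac score did not need a strong H3K4me3 region.

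**Figure D1:**
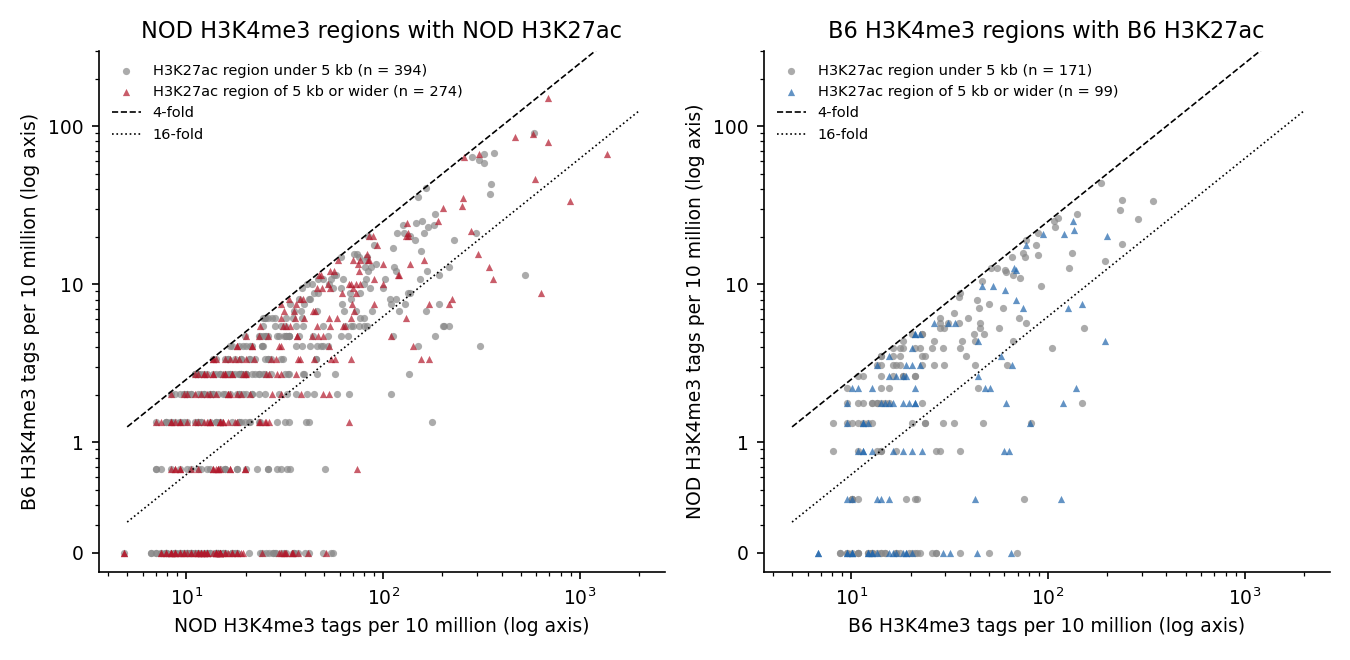
H3K4me3 tags per 10000000 in the own strain (horizontal, log axis) and in the other strain (vertical, log axis, regions without tags drawn at 0) for the 668 NOD and 270 B6 regions with both marks. Triangles are regions over H3K27ac regions of 5 kb or wider, dashed and dotted lines mark 4-fold and 16-fold, and the NOD regions reach further right, to 1369.6 against 340.1 in B6.

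Across all regions with both marks, the median was 24.2 normalised tags in NOD (interval 21.1 to 26.4) and 21.0 in B6 (18.9 to 23.7). In the full H3K4me3 lists the medians were 13.2 and 13.5. In the other strain, the median number of tags was 4.0 for NOD regions and 5.0 for B6 regions, against 2.00 in both full lists. Of NOD regions with both marks, 144 (21.6%) had no tag in the other strain, against 34.9% of the full list, and in B6 the values were 20.4% and 37.9%. At fixed width the differences in tags were small. Of regions with both marks 37.1% in NOD and 46.3% in B6 were exactly 500 bp wide, against 72.9% and 83.4% of the full lists. Among regions of exactly 500 bp, the median was 12.7 normalised tags with both marks (interval 11.9 to 13.6) against 11.9 of all in NOD, and 14.2 (12.8 to 14.9) against 12.8 in B6. The shares without a tag in the other strain were then 34.7% (29 to 40.8) against 41.7% in NOD and 28.8% (21.6 to 37.3) against 41.3% in B6.

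The fold was 8 or more in 292 NOD regions with both marks, or 43.7% (40 to 47.5), against a background of 27.7% in the NOD list. In B6 it was 8 or more in 147 regions, or 54.4%, and the background was 54.3%, so the B6 share matched that of its list. Regions without tags in the other strain entered with a lower bound set by 3 tags, which a region of the shallower B6 library passes with fewer tags, so the backgrounds of the strains are not comparable. The median fold was 7.37 in NOD and 8.58 in B6, with such regions at their bound.

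Seen from H3K27ac, 575 of 5908 NOD regions on chromosomes 1 to 19 held an H3K4me3 region, or 9.73% (9.0 to 10.5), and 252 of 5430 B6 regions did, or 4.64% (4.11 to 5.23). The overlap with H3K27ac of the other strain was measured in the same way. Of the NOD H3K4me3 list 105 regions met B6 H3K27ac, or 0.888% (0.734 to 1.07). Of the B6 list 40 met NOD H3K27ac, or 0.532% (0.391 to 0.724). In NOD 3 and in B6 1 of the regions with both marks met H3K27ac of both strains. Because the same-strain overlap chose the regions, nothing is read from its distance to the other-strain share, which comes from lists of opposite direction and is no chance level.

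The share with both marks went up with the strength of either mark. Of NOD H3K4me3 regions under 20 tags at the B6 library size 2.61% met NOD H3K27ac, and of those with 200 tags or more 39.6% did. In B6 the same groups gave 1.64% and 55.6%. By H3K27ac score, the share that held an H3K4me3 region went from 3.0% under a score of 10 to 42.3% at 100 or more in NOD, and from 2.24% to 30.5% in B6. H3K4me3 width moved with it, since NOD regions of exactly 500 bp gave 2.87% and those of 2 kb or wider gave 37.9%, and a wider region has more bases that can meet another. The part of width in these shares was not tested further. Within the selected regions, normalised tags followed score only weakly (Spearman rho 0.12 over 668 NOD and 0.05 over 270 B6 regions, which share their libraries).

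**Figure D2:**
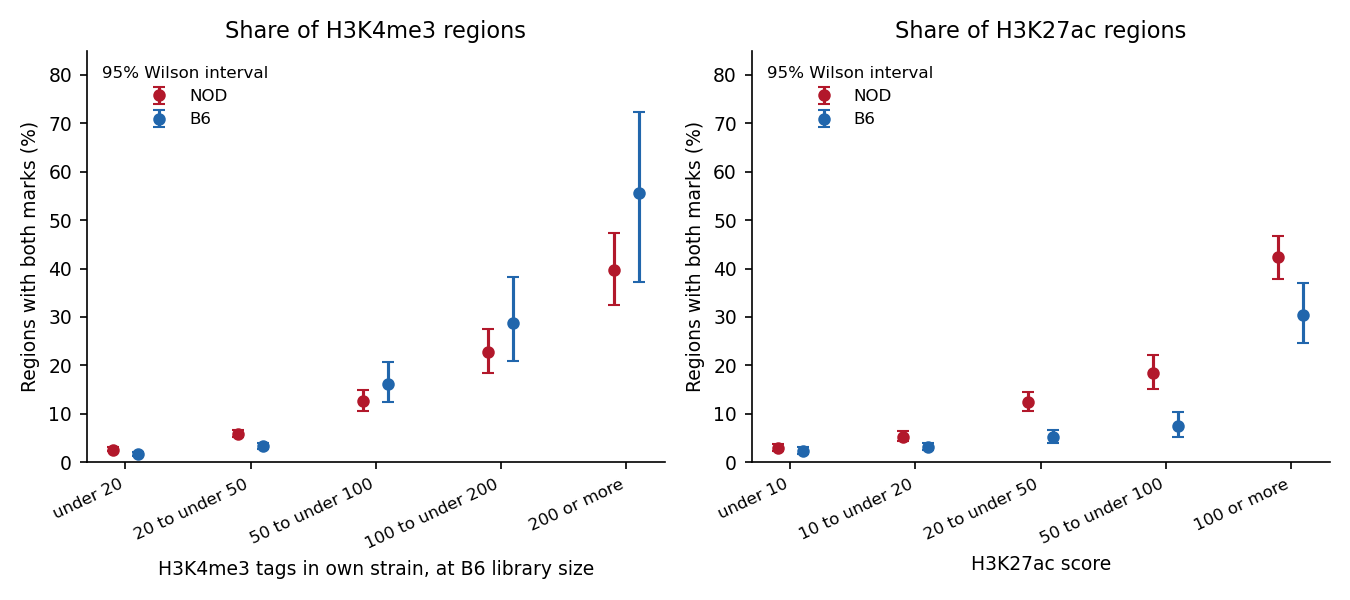
Share of regions with both marks, in percent with 95% Wilson intervals, by own-strain H3K4me3 tags at the B6 library size (left) and by H3K27ac score (right), for NOD in red and B6 in blue. In both strains the share climbs from under 4% in the weakest group to between 30.5% and 55.6% in the strongest.

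The H3K27ac regions that held H3K4me3 were broad. Their median width was 1060 bp in NOD and 831 bp in B6, against 293 and 262 bp in the full lists, and their median score was 46.3 and 29.8 against 12.9 in both lists. Regions of 5 kb or wider made up 188 of the 575 NOD regions, or 32.7%, against 9.14% of all NOD H3K27ac regions. In B6 they made up 83 of 252, or 32.9%, against 9.10%. A broader region has more bases that an H3K4me3 region can meet. The H3K4me3 region lay wholly inside the H3K27ac region in 243 NOD cases (36.4%) and 81 B6 cases (30.0%), and the reverse held in 148 (22.2%) and 61 (22.6%). The rest, 277 and 128, overlapped in part. Summed over all, listed regions of both marks shared 403 kb in NOD and 132 kb in B6. H3K27ac regions with H3K4me3 were up to 55545 bp wide in NOD, and a wide region may join separate peaks. Only starts and ends were listed, so it is not known whether each shared base had H3K27ac signal.

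Most H3K27ac regions held 1 H3K4me3 region, namely 514 of 575 in NOD and 238 of 252 in B6. In NOD 19 regions held 3 or more. The region at Zfp970, a zinc finger gene, and that at Meg3, an imprinted long non-coding RNA that is expressed from the maternal allele, each held 5, as did that at LOC101056073. At Meg3 the H3K4me3 regions had 304, 78, 53, 37 and 36 NOD tags against 31, 0, 2, 0 and 4 B6 tags, spread over an H3K27ac region of 23117 bp. The histone gene Hist2h2aa2 held 4, with 299, 100, 33 and 32 NOD tags, in a region of rank 823 by score and 8306 bp in width. In B6, C130026I21Rik held 4 in a row, each with 23 to 33 B6 tags and 4 to 7 NOD tags.

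**Figure D3:**
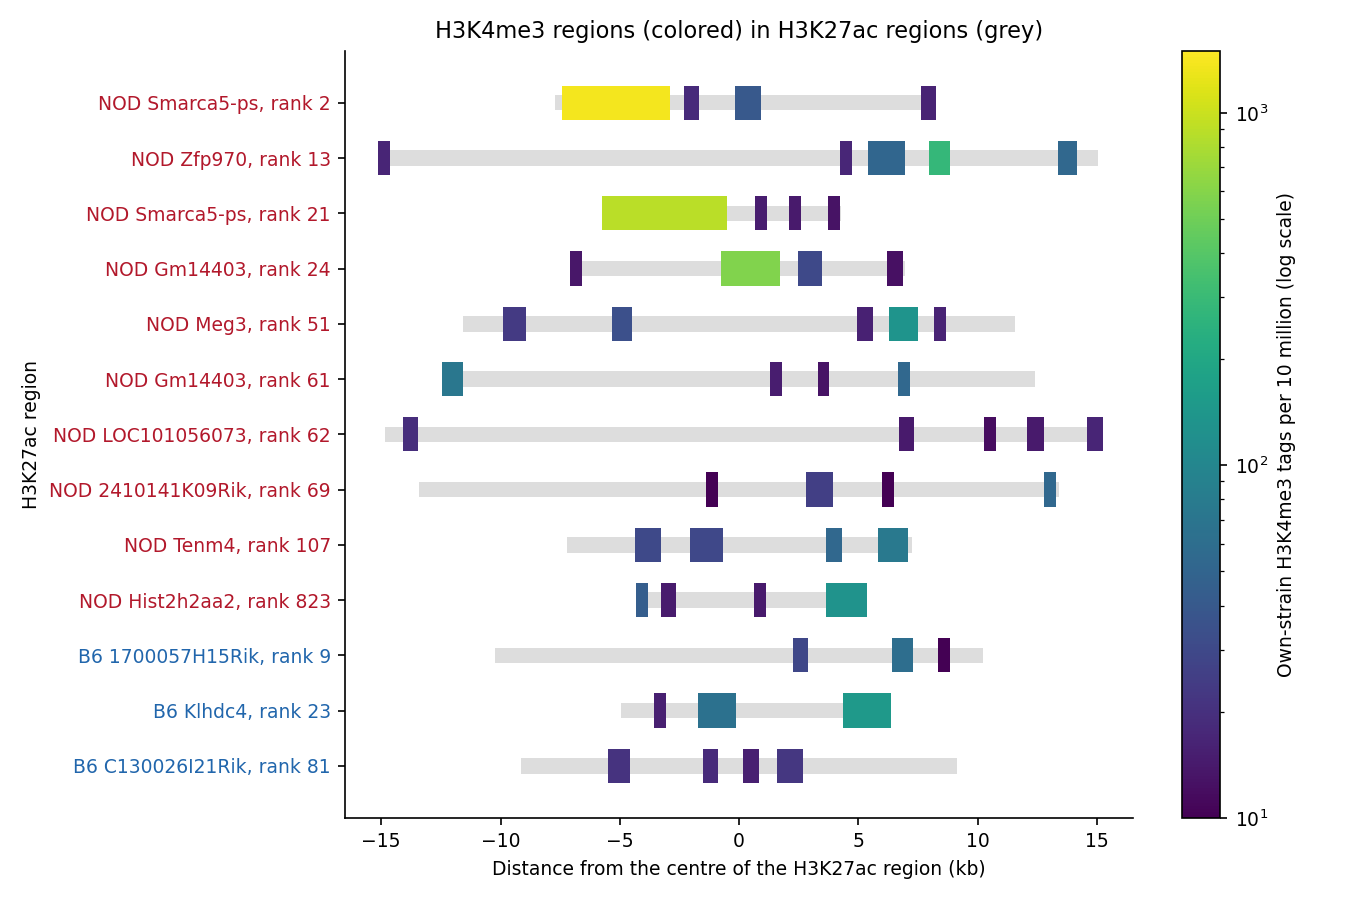
H3K27ac regions (grey bars) with 4 or more H3K4me3 regions in NOD or 3 or more in B6, as distance in kb from the centre of the H3K27ac region, with H3K4me3 regions as blocks colored by own-strain tags per 10000000 (log scale). At Smarca5-ps the strongest block covers 1 end of the region, while at Meg3 and LOC101056073 blocks lie apart along most of the region.

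Regions with both marks were spread over the genome, with a small part of them in dense stretches. The stretches of 1 Mb with the most such regions were as follows. On chromosome 2 between 177 and 178 Mb, 27 of 51 NOD H3K4me3 regions carried both marks, or 52.9% (39.5 to 65.9), and these made up 4.04% of all NOD regions with both marks. They were assigned to the zinc finger gene Zfp970 and to Gm14296 and Gm14403, which lie in the same gene cluster. On chromosome 4, 13 of 32 regions between 145 and 146 Mb and 7 of 15 between 146 and 147 Mb did, at Smarca5-ps, LOC101056073, Gm13034, Zfp987 and Rex2. On chromosome 13 between 66 and 67 Mb 9 of 14 did, at 2410141K09Rik and Gm10324. On chromosome 12 between 109 and 110 Mb 7 of 13 did, at Meg3 and the microRNA gene Mir3072. The stretch of B6 with the most was on chromosome 1 between 85 and 86 Mb, where 7 of 25 regions carried both marks, or 28% (14.3 to 47.6) and 2.59% of all such B6 regions, at C130026I21Rik and Sp110 of the Sp100 family.

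Several of these stretches hold near-identical gene copies, so it was counted how often parts of each region recur. From the central 300 bp of a region, 5 stretches of 50 bases, the read length, were searched on both strands of the reference chromosomes, and a region was termed repeated when 3 or more of them occurred more than once. Of NOD regions with both marks, 60 of 667 were repeated, or 9.0% (7.05 to 11.4), against 1.95% of the NOD list. In B6 22 of 270 were, or 8.15% (5.44 to 12), against 4.34%. On chromosome 2 of NOD between 177 and 178 Mb 14 of 27 were repeated, and on chromosome 4 between 146 and 147 Mb 5 of 7. On chromosome 13 of NOD between 66 and 67 Mb 5 of 9 were, and on chromosome 1 of B6 between 85 and 86 Mb 3 of 7. At Smarca5-ps and its neighbours between 145 and 146 Mb of chromosome 4, and at Meg3, none was, of 13 and 7 regions.

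In a repeated region the copy that gave the tags is uncertain, and copy number in NOD was not measured. Among unrepeated NOD regions 5.23% (4.84 to 5.65) carried both marks, against 26.0% (20.7 to 32.0) of repeated ones, and in B6 the values were 3.45% and 6.75%. The B6 region at Sec11a, annotated as an IAP repeat, the strongest region of 1700057H15Rik and that of Sh3bp4 were repeated many times, with medians of 341, 85 and 64 occurrences of their stretches.

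The chromosomes differed in their shares. In NOD the share ran from 3.05% on chromosome 6 and 3.44% on chromosome 8 to 8.12% on chromosome 2 and 8.33% on chromosome 13. In B6 it ran from 0.866% on chromosome 8, with 6 of 693 regions, to 6.98% on chromosome 4, with 33. Chromosome 8 held 1481 H3K4me3 regions in NOD, the most of any chromosome, and 51 of them carried both marks. Per Mb this was 0.394, next to chromosome 2 with 0.406, the highest value of NOD, so the low share was not a low density. Chromosome 6 held the most B6 regions, 1034, of which 37 did, or 0.247 per Mb, the highest value of B6. NOD chromosome 6, with 0.114 per Mb, and B6 chromosome 8, with 0.0464, were low by both measures.

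**Figure D4:**
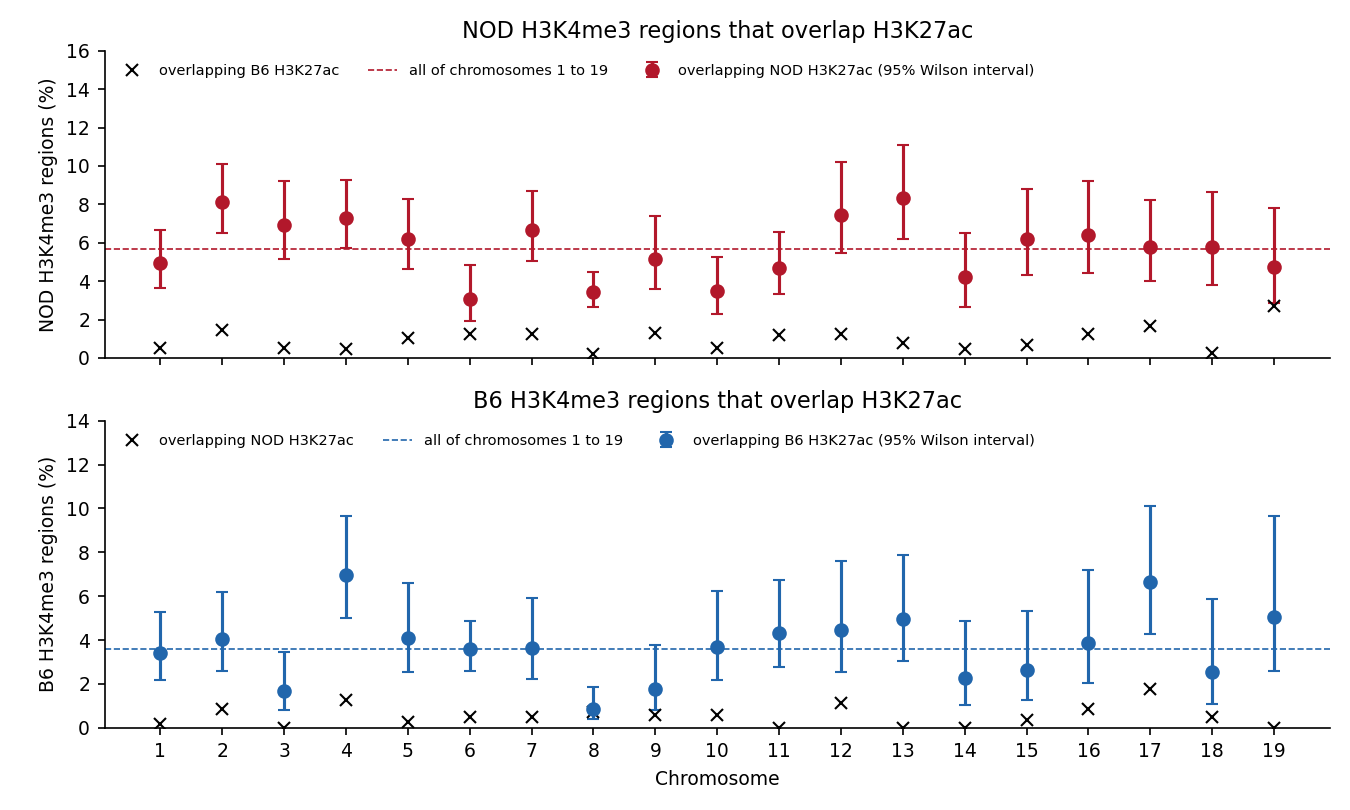
Share of H3K4me3 regions that overlap H3K27ac of the same strain (circles with 95% Wilson intervals) and of the other strain (crosses), by chromosome, for NOD (top) and B6 (bottom), with the value over all 19 chromosomes as a dashed line. The lowest NOD circles are at chromosomes 6 and 8, and the B6 circle at chromosome 8, at 0.866%, lies nearly on its cross.

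Regions with both marks lay closer to genes in B6 than in NOD. A TSS of RefSeq, predicted transcripts included, lay within 1 kb of the centre of 107 NOD regions with both marks, or 16% (13.4 to 19), against 14.9% of the NOD list. In B6 it did for 74 regions, or 27.4% (22.4 to 33.0), against 15.2%. Median distance to a TSS was 9964 bp in NOD, against 10626 bp, and 5170 bp in B6, against 15162 bp. Of the regions at a TSS, 71 in NOD and 53 in B6 were at a protein-coding gene, and 28 and 20 at a long non-coding RNA. The nearest TSS carried the gene symbol that the H3K27ac file names in 66 of 107 and 48 of 74 cases. Elsewhere the symbols differed. Some of these were a neighbour, and some were another name of the same gene, such as H2afj and H2aj in B6.

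By the annotation of H3K27ac regions, 55.3% (51.2 to 59.3) of NOD regions with H3K4me3 were intergenic, against 43.1% of all, and 4.0% (2.68 to 5.93) were at promoters, against 8.28%. In B6 40.5% were intergenic, against 39.4%, and 8.73% (5.84 to 12.9) at promoters, against 5.82%. CpG islands made up 3 of the 575 NOD regions, or 0.522% (0.178 to 1.52), against 3.23% of the list, and 5 of the 252 B6 regions, or 1.98% (0.850 to 4.56), against 0.884%. An interspersed repeat was named for 40.3% (36.4 to 44.4) in NOD, against 35.4%, and for 28.2% (23 to 34.0) in B6, against 28.9%. Long terminal repeats of retroviral origin were the largest class, with 23% (19.7 to 26.6) in NOD against 20% of all, and 14.3% in B6 against 14.5%. Within them the ERVK family gave 13.6% (11 to 16.6) in NOD against 11.2% of all, and 9.13% (6.16 to 13.3) in B6 against 7.81%, so both intervals include the share of the full list. The label of an H3K27ac region need not hold for all of a wide region, nor for its H3K4me3 region. In B6, the H3K27ac region at Zc3h12a was labelled intergenic, although its H3K4me3 region lay 541 bp from the Zc3h12a TSS. Regions with H3K4me3 were wider than the full lists, and the part of width in these shares was not tested.

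**Figure D5:**
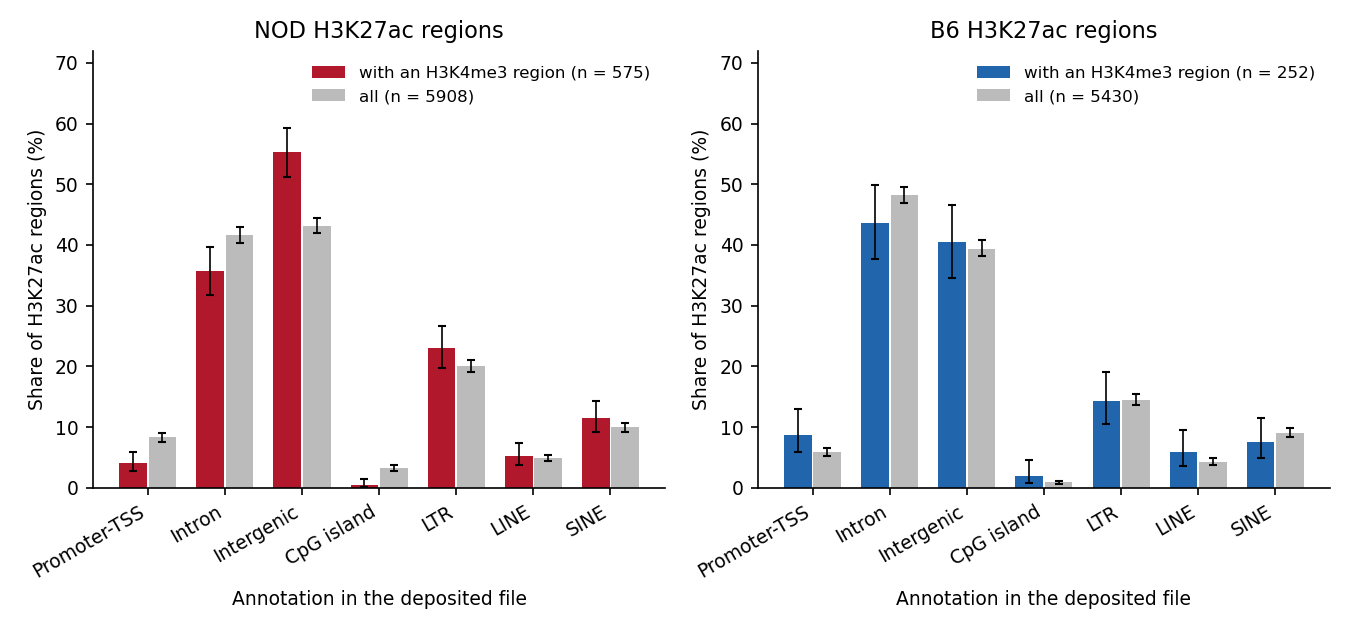
Annotation of H3K27ac regions that hold an H3K4me3 region (colored) and of all H3K27ac regions (grey) in NOD and B6, in percent with 95% Wilson intervals. The label of a wide region need not hold for all of it. Intergenic regions are more frequent among NOD regions with both marks, at 55.3% against 43.1%, and promoters less, while the B6 bars lie within each other's intervals or close to them.

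In sequence, the central 300 bp of regions with both marks had a median GC content of 47.7% in NOD, against 46.0% in the NOD list, and 50.7% in B6, against 45.7%. The observed over expected CpG ratio was 0.265 (0.240 to 0.279) against 0.231 in NOD, and 0.315 (0.284 to 0.340) against 0.237 in B6. Of 8 short motifs searched on both strands, the ETS motif CCGGAAG was found in 18 B6 regions with both marks, or 6.67% (4.26 to 10.3), against 2.67% of all B6 windows, and in 3.59% against 2.55% in NOD. The GC box GGGCGG gave 15.6% (11.7 to 20.4) against 11.1% in B6, and was found in 67 of 668 NOD regions with both marks and 1189 of 11830 in the NOD list. The Esrrb motif TCAAGGTCA gave 2.59% (1.26 to 5.25) against 0.692% in B6 and 0.449% against 0.795% in NOD, and the cAMP response element TGACGTCA gave 1.48% against 0.359% in B6 and 0 against 0.127% in NOD. The CCAAT box CCAAT gave 34.1% against 34.5% in NOD and 37.4% against 36.3% in B6. The E-box CACGTG gave 4.94% against 4.32% and 5.93% against 3.79%, and the octamer ATTTGCAT gave 0.898% (0.412 to 1.95) against 1.64% and 1.48% against 1.85%. The motif TCGCGA gave 0.299% against 0.456% and 0.741% against 0.399%. None of the motifs contains another, and a match is a string of letters and no proof of binding.

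Among innate immune genes, 4 of the 15 named anywhere in the NOD H3K27ac list had a region with both marks. In B6 none of 8 did, where the list took 9 H3K27ac regions, or 0.166% of all. Over all names of the H3K27ac lists, 521 of 4587 in NOD and 243 of 4296 in B6 had such a region. At that B6 share, none of 8 says nothing about these genes. The pattern recognition receptor gene Tlr2 had 263 NOD tags against 18 of B6, or 9.50-fold (5.89 to 16.3), in a region 16806 bp from its TSS, with an H3K27ac score of 17.0. Its relative Tlr4 had a pair of regions with 34 NOD tags and 0 B6 tags each, at least 7.37-fold, within an H3K27ac region of score 450.8 that lay 74.3 kb from the TSS, and 1 of the pair was repeated in the genome. At Mavs, the adaptor of RIG-I-like receptors, 52 NOD tags stood against 1 B6 tag, 1041 bp from the TSS. The second region at Ly6e had 79 and 0 tags. The 6 regions of these genes made up 0.898% of NOD regions with both marks, and the list took 0.288% of all NOD H3K27ac regions. Here and for the lists below, the first share counts H3K4me3 regions and the second counts H3K27ac regions. An H3K27ac region that holds several H3K4me3 regions counts more than once in the first share alone. The shares are therefore not like for like.

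Genes of diabetes susceptibility regions, a list that includes genes the study picked from these cells and is therefore no independent evidence, had 6 NOD regions with both marks at 5 genes, or 0.898% of such regions against 0.559% of NOD H3K27ac regions. In B6 it had 1, at Zfp982, or 0.370% against 0.331%. Fcgr3, an Fc gamma receptor gene, had 63 NOD tags and 0 B6 tags, at least 13.7-fold. They lay over an H3K27ac region annotated as a B1 repeat, 12 kb from the TSS, with a score of 81.6. Fcgr1, the high-affinity receptor, had 190 and 18 tags over an H3K27ac region annotated as a CpG island, 34.3 kb from its TSS. Pcmtd1 had regions with 196 and 39 NOD tags against 14 and 0, Bach2, a repressor in B and T lymphocytes, 69 against 5, and the co-stimulatory receptor gene Cd28 42 against 3. At H2-Eb1, which encodes a beta chain of MHC class II, 336 NOD tags stood against 36 of B6, or 6.07-fold (4.30 to 8.81). They lay over an H3K27ac region annotated as a long terminal repeat, with a score of 202.3, 3983 bp from the TSS. In B6, the TSS of Ikzf4, a transcription factor of regulatory T cells, lay 65 bp from a region with 81 B6 and 29 NOD tags that the file assigns to Suox. The B6 region assigned to Zfp982 had 113 and 34 tags over a CpG island, but its H3K27ac region lay 100094 bp from the TSS of that gene, and the nearest TSS, of Zfp988, was 29.8 kb away. The class I-like gene Gm8909 had 288 and 32 tags at its promoter. H2-Eb1 in NOD and Gm8909 in B6 were the sole entries of the list of MHC and antigen genes. This was 0.150% of NOD regions with both marks against 0.0677% of H3K27ac regions, and 0.370% against 0.0552% in B6.

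Of pluripotency genes, 4 of 17 named in the NOD list and 1 of 15 in the B6 list had both marks. Over all names it was 521 of 4587 and 243 of 4296. Regions of the pluripotency genes made up 0.898% of NOD regions with both marks against 0.389% of NOD H3K27ac regions, and 0.370% against 0.479% in B6. Zfp42, known as Rex1 and a marker of naive ES cells, had 143 NOD tags against 10 of B6, 47.6 kb from its TSS. Sall4 had 351 against 16 tags, or 14.3-fold (8.66 to 25.2), 78.7 kb from its TSS, with an H3K27ac score of 29.4. The zinc finger gene Rex2 had 301, 76 and 37 NOD tags in a region of rank 111 and, 79.4 kb from its TSS, a different region in B6 with 155 tags against 9. Tet2, which oxidizes methylcytosine, had 54 and 7 tags in NOD over an L1 repeat, whose stretches had a median of 1363 occurrences in the genome, so these tags cannot be placed with certainty. Of the 6 NOD regions at pluripotency genes 3 were repeated in the genome, that of Tet2 included. The NOD regions of Rex2 lie in the stretch of chromosome 4 from 146 Mb, where 5 of 7 were repeated. None of these NOD regions lay at the promoter of the gene that names it.

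Genes of DNA methylation gave 2 B6 regions, or 0.741% of those with both marks against 0.276% of B6 H3K27ac regions, and 1 NOD region, that of Tet2, or 0.150% against 0.169%. At Dnmt3l, the partner of the de novo methyltransferases, 129 B6 tags stood against 40 of NOD (4.96-fold, 3.45 to 7.26). The H3K27ac region there, annotated as a long terminal repeat, lay 3974 bp from the Dnmt3l TSS. Of the central 300 bp of the H3K4me3 region, 0% was marked as repeat. The TSS of Aire, the autoimmune regulator of the thymus, was the nearest to the H3K4me3 region at 4331 bp. Mbd4, a thymine glycosylase, had 52 and 19 tags in its first intron. Imprinted genes gave 8 NOD regions at 4 genes, or 1.20% of regions with both marks against 0.389% of H3K27ac regions. Of the 8, 5 were those of Meg3, which lie in 1 H3K27ac region. In B6 they gave 1 region, or 0.370% against 0.147%. The adaptor gene Gab1 had 389 NOD tags against 11 (23-fold, 12.7 to 46.4), the Polycomb gene Sfmbt2 165 against 15, and the retrogene Mcts2 73 against 8. In B6, Blcap had 40 against 2.

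Genes of Wnt, FGF and related signaling made up 0.299% of NOD regions with both marks against 0.745% of H3K27ac regions, and 0.741% against 1.05% in B6. Lineage factors gave 0.299% against 0.389% in NOD and 0.370% against 0.571% in B6, where Olig1 was the entry. The Wnt effector genes were Lef1 in NOD, with 76 and 7 tags, and Tcf7l2 in B6, with 68 and 22, and the Wnt receptor gene Fzd7 had 23 B6 and 8 NOD tags. Spred2, an inhibitor of ERK signaling, had 20 and 2 in NOD. Msx2, a homeobox gene, had 111 and 73 NOD tags against 14 and 0. Genes of the 2-cell-like state gave Gm5662 in NOD, with 72 and 43 tags against 4 each, and Sp110 (64 and 18) and Usp17le (21 and 0) in B6. This was 0.299% of NOD regions with both marks against 0.118% of H3K27ac regions, and 0.741% against 0.0368% in B6. Zfp42 in NOD was the sole entry of the list of methylated germline genes, with 0.150% against 0.0846%. Crxos in NOD was that of homeobox clusters, with 0.299% against 0.102%. B6 had none of either, and these lists took 0.0368% and 0.0552% of B6 H3K27ac regions.

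Zinc finger genes, taken as 435 symbols beginning Zfp, Zscan or Zkscan, were the longest list and the largest group in both strains. The list leaves out zinc finger genes with other symbols, such as Rex2, with 3 NOD regions and 1 B6 region. Gm14296 and Gm14403, in the cluster of Zfp970, had 6 and 10 NOD regions and were not in it either. The shares given here are those of the listed symbols. In NOD 14 genes had 27 regions, or 4.04% of regions with both marks against 2.73% of H3K27ac regions, and in B6 10 genes had 11, or 4.07% against 1.97%. In NOD, Zfp970 had 11 of the 27, Zfp951 had 741 NOD tags against 86 and lay 635 bp from its TSS, and Zfp773 had 577 against 52. Zfp280d had 273 against 10, and Zfp839 had 250 against 11. In B6, Zfp729b (207 and 63 tags) and Zfp874a (160 and 52) lay 116 and 434 bp from their TSSs, and Zfp273 had 42 and 2 over a long terminal repeat. Of the 27 NOD regions 13 were repeated in the genome, among them those of Zfp951 and Zfp773, and of the 11 B6 regions 2 were. The part of repeated sequence in these tags was not tested. The folds of Zfp729b and Zfp874a were 5.05 and 4.73, so NOD had tags there as well.

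The regions were assigned to 521 gene names in NOD and 243 in B6, of which 9 were shared, or 1.73% of the NOD and 3.70% of the B6 names. Over all H3K27ac regions the strains shared 1333 names, or 29.1% of 4587 in NOD and 31% of 4296 in B6, but these longer lists have more chances to share a name. The shared names were 1700030C10Rik, 2410141K09Rik, 4933406J10Rik, 5730507C01Rik, Dad1, E330020D12Rik, Gm10324, Rex2 and Sh3bp4. In 8 NOD and 8 B6 H3K27ac regions with both marks, an H3K4me3 region of the other strain was present too, among them Cry1, Ptp4a2 and Rex2 in NOD and Gadd45a, Kiss1 and Rimklb in B6.

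At the edge of the selection, the NOD regions at Crb2 and Etfb were included with 1 bp of overlap and held 16 and 36 NOD tags. The nearest NOD regions left out were at Gtf2a1, which abuts its H3K27ac region without sharing a base and held 32 tags, and at A630075F10Rik and Hmgxb4, with gaps of 8 and 9 bp and 30 and 52 tags. In B6, Spata18 was included with 1 bp and 13 tags, and Prss27 was left out by a gap of 5 bp with 29 tags. A further 344 NOD and 124 B6 H3K4me3 regions, or 3.08% and 1.71% of those not selected, lay within 1 kb of H3K27ac of their strain.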

How the data were processed

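H3K4me3 and H3K27ac ChIP-Seq of NOD and B6 ES cells was available as 4 lists of regions from 4 libraries. The authors mapped reads to mm10 and called regions with HOMER, each strain against the other in place of an input. Submitters' processing notes list mm9, STAR 2.2.0c and CASAVA 1.8.2, but distances to start sites in the H3K27ac files equal those computed on GRCm38 within 2 bp for 87.9% of NOD and 87.8% of B6 regions, so coordinates were read as mm10. Per the file headers, an H3K4me3 region needed 4-fold more tags than the other strain and a Poisson p-value, which is not used here. Deposited values were the count of B6 tags, the signal in tags per 10000000, scaled tags, the ratio (fold) of both strains and a HOMER score. Whole NOD tags were recovered from the deposited signal and library total, within 0.114 of a whole number, and folds were recomputed. The H3K27ac score was deposited by the authors without tags or depth.

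The members and the gene lists were chosen with earlier results of these data known. An overlap was the smaller end minus the larger start, of at least 1 bp. Per strain, genes were named for the 10 regions with the most normalised tags, the 10 with the highest H3K27ac score, the 5 with the best sum of ranks, all members of the gene lists, the 5 names with the most regions, and the 3 regions nearest the edge of the rule on either side. Of the last and of zinc finger genes some examples are given. The count of repeated stretches was added after the data were seen. Shares have Wilson intervals, folds exact binomial intervals and medians order-statistic intervals. With 1 library per group no test was made. The 3 mitochondrial regions were left out. Alternatives changed the overlap, the fold, tags, widths, scores, chromosomes and the TSS window. Functions were tested on simulated data. Python 3.11.15, numpy 2.4.6, pandas 2.3.3, scipy 1.17.1 and pysam 0.24.0 were used, and the libraries held 14791364 (B6) and 22750449 (NOD) H3K4me3 tags.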

Additional observations from a re-analysis of the deposited data

How the results depend on the processing

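Results were recomputed under 9 other settings, a pair of other TSS windows and 1 setting added after seeing the data. The values of shares stayed within the interval of the main value in 58 cases and left it in 26, and those of medians in 47 and 13. Selecting by the H3K4me3 centre gave 3.86% of NOD and 2.46% of B6 regions over same-strain H3K27ac, and 0.566% and 0.319% over the other strain. A fold of 8 or more gave 8.92% in NOD, with 45.5% over H3K27ac regions annotated as repeats, and 0.367% of B6 over the other strain. With at least 50 tags, 18% of NOD and 21.6% of B6 regions met same-strain and 0.572% and 1.61% other-strain H3K27ac. With both marks, 21.4% and 37.2% then lay at a TSS, and 43.7% of NOD lay over H3K27ac regions annotated as repeats. Regions of exactly 500 bp gave 2.87% and 1.99%. H3K27ac regions under 5 kb gave 3.33% and 2.27%, and 0.609% and 0.332% for the other strain. Without chromosomes 6 and 8 NOD gave 6.13%, and unrepeated NOD regions gave 5.23%. A TSS within 5 kb was found for 36.2% of NOD and 49.3% of B6 regions, and inside the region for 8.98% and 17.0%. The causes of these shifts were not tested.

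No paired analysis was possible because each strain and mark had 1 library, and for the same reason no library was left out. The depth of H3K27ac is unknown, no input library was used, and strain and library cannot be told apart.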

Other observations

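H3K4me3 regions on the sex chromosomes lay outside the selection and entered 1 alternative setting. On chromosome X of NOD, 25 of 211 H3K4me3 regions overlapped NOD H3K27ac, or 11.8% (8.16 to 16.9), and on chromosome Y of NOD 9 of 36 did, or 25.0%. On chromosome Y of B6 it was 3 of 9, or 33.3%. In B6, 2 of 56 regions on X did, or 3.57%. The sex of the ES cell lines was not given in the labels. The authors stated that they focused on male lines after derivation, but did not name the lines used for ChIP-Seq. The sex chromosomes were not compared with the others.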
